A study of Mus musculus with 9 samples.

Results

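The genes described here encode collagens and other components of the extracellular matrix. A list of 56 mouse genes was used, made of collagens, laminins and other basement membrane proteins, elastic fibre proteins, proteoglycans and adhesive glycoproteins. A probe set, which is a group of short probes against 1 transcript, was taken as a member where the platform annotation gave it a single gene symbol and that symbol was on the list. This rule gave 119 of the 45101 probe sets, for 53 of the 56 genes. Fbn1, Efemp2 and Loxl2 were not analysed here, because no probe set carried their symbol alone. Each gene was read from its probe set of highest mean level, and 18193 genes were measured in this way. The rule itself used no measured difference between treatments, but the list of genes was chosen with earlier results of these data known.

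The matrix is the protein and polysaccharide scaffold that mesenchymal cells secrete around themselves. Fibrillar collagens give it tensile strength, elastic fibres give recoil, basement membranes separate epithelium, vessels and muscle from the connective tissue, and fibronectin, tenascin and the thrombospondins link the scaffold to cell surface receptors. In the gut these products come mainly from the fibroblasts and smooth muscle precursors under the epithelium, which are also the cells that receive hedgehog ligands from it.

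The arrays were made from the mesenchyme of the small intestine of C57Bl/6J mouse embryos at E18.5, shortly before birth, grown on a collagen matrix in serum-containing medium after removal of the epithelium. Cells were kept in culture for 48 h and then received Shh (Sonic hedgehog), Ihh (Indian hedgehog) or Vehicle for 24 h, with 3 Affymetrix arrays per treatment and 9 in all. Neither the ligand dose nor what the Vehicle contained is given in the sources used here. The 6 wells of a treatment were combined at random into 3 samples, so a replicate is a pool of wells, and p-values measure the spread between such pools. In bulk RNA of this kind, fewer cells of a type and less RNA per cell cannot be told apart.

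Values were log2 expression after RMA, an array method that sets all arrays to a common distribution. The array medians lay between 5.87 and 5.92 and the correlation between arrays between 0.991 and 0.998, and levels of different genes were not set against each other because probes differ in brightness. Ptch1, a target gene of hedgehog signalling that served as the check of treatment, lay at 9.06 to 9.25 on the Vehicle arrays and at 10.35 to 10.98 on the treated arrays. The fibroblast markers Vim and Pdgfra were well above the array medians, at 12.97 to 13.10 and at 11.73 to 12.06. Others on that list, Thy1 and Twist1, were nearer to the medians, at 6.07 to 7.35 and 6.14 to 6.46. Some macrophage markers were bright as well, such as Lyz2 at 12.71 to 13.20 and Csf1r at 12.00 to 12.35. Markers of the removed epithelium were still measurable and uneven, with a summed linear level of the 7 markers between 734 and 4217, and 0 of the 7 differed between treatments at an adjusted p under 0.05 in limma for both ligands. Xist, a transcript of female cells, was at 10.83, 6.34 and 6.48 on the Vehicle arrays and 11.31, 11.24 and 6.43 on the Shh arrays. On the Ihh arrays it was at 10.04, 10.28 and 10.66. The sex of the embryos was thus unevenly spread over the pools and over the treatments. The part of sex in the differences between treatments was not tested.

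With both ligands, 2 of the 53 matrix genes changed, and both fell, where 1.07% of all genes fell. These were Thbs1, which encodes the adhesive glycoprotein thrombospondin 1, and Dpt, which encodes dermatopontin, a small protein that binds decorin and collagen fibrils. Another, the fibronectin gene Fn1, fell with Shh, where 1.24% of all genes fell, and Thbs1 fell with Ihh, where 0.456% of all genes fell. With both ligands 0 of the matrix genes rose, against 0.434% of all genes, although 8 reached an unadjusted p under 0.05 in limma with higher values. The differences of the other genes did not pass the threshold, and they were unevenly placed: all 9 glycoproteins and matricellular proteins and all 7 fibrillar collagens lay below their Vehicle means, and elastic fibre genes were divided between higher and lower values.

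The 3 comparisons with Vehicle were fitted with limma over all 18193 genes, and a gene was called at a Benjamini-Hochberg adjusted p under 0.05. For both ligands, taken as the mean of the Shh and Ihh groups, 1.51% of all genes passed, and 2 of 53 matrix genes passed. For Shh alone 1.73% of all genes and 1 matrix gene passed, and for Ihh alone 0.649% of all genes and 1 matrix gene passed. The Vehicle arrays are common to these comparisons. Of the matrix genes, 8 higher and 11 lower ones reached an unadjusted p under 0.05 with both ligands, where 5.25% of all genes did so upward and 8.41% downward. The median difference of the matrix genes was -0.050 on the log2 scale, beside 0.001 over all genes, with 18 genes above 0 and 35 below. The median size of the difference without its sign was 0.13 for the matrix genes and 0.061 for all genes. Spread between the pools was also wider in the matrix genes, with a median SD within groups of 0.12 against 0.096 over all genes.

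The treated and Vehicle arrays did not overlap at all for 11 matrix genes, 8 of them lower and 3 higher with both ligands, where the share over all genes was 3.8% lower and 2.67% higher. The 8 lower genes were Col1a1, Col5a2, Col5a3, Loxl1, Fn1, Tnc, Dpt and Thbs1. The 3 higher genes were Col6a2, Emilin1 and Mfap2.

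**Figure D1:**
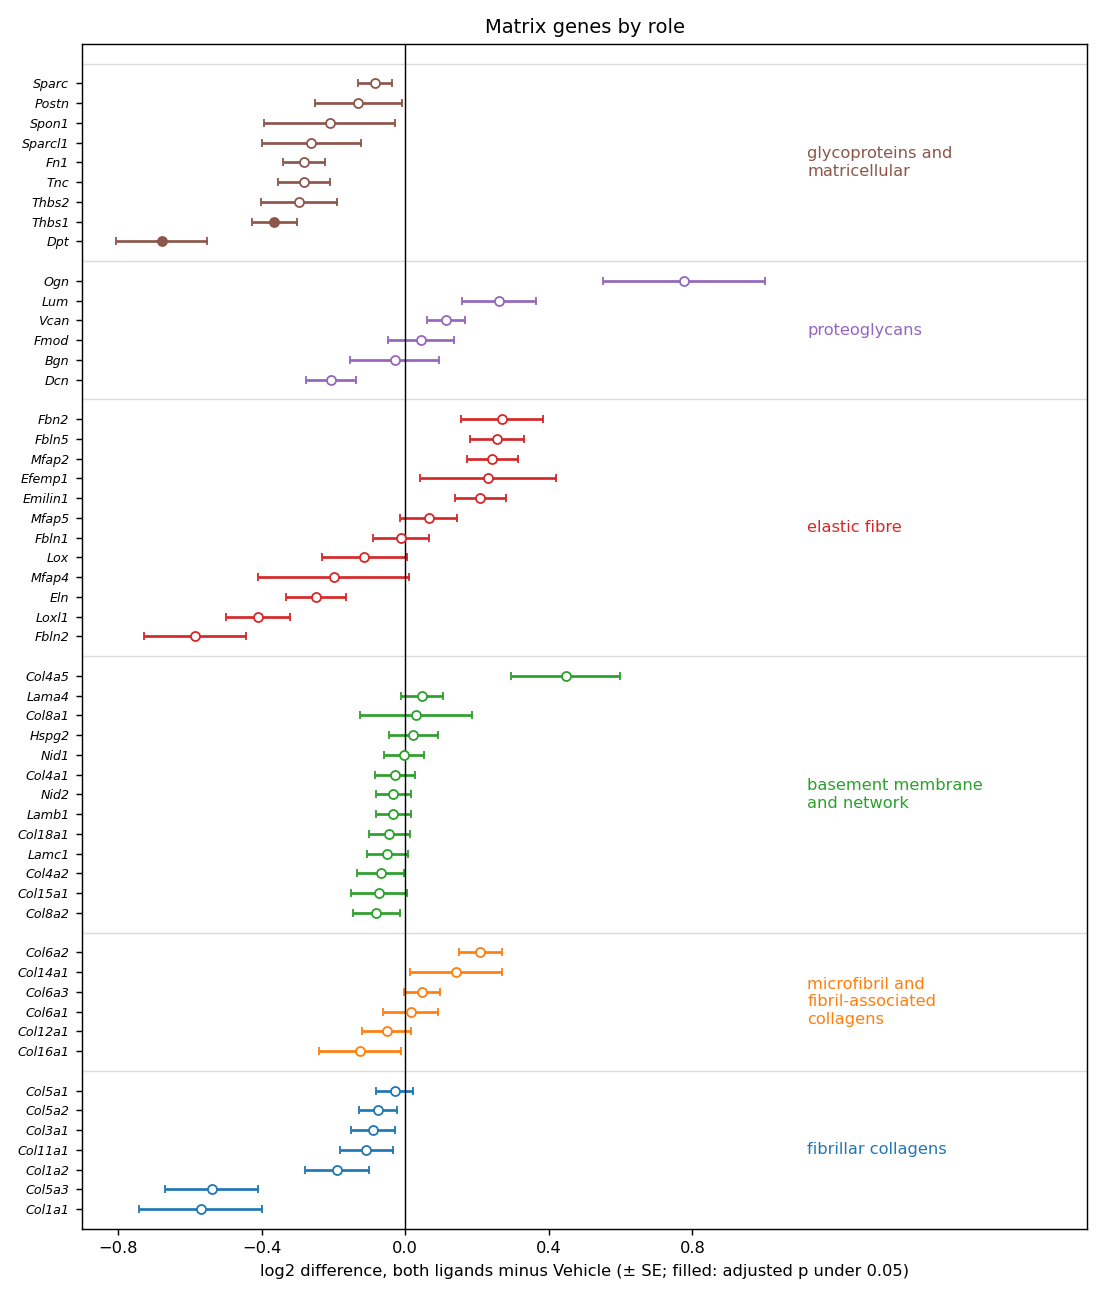
Log2 difference of both ligands from Vehicle (horizontal axis, bars ± SE from limma) for the 53 measured matrix genes, grouped by role, with filled points for an adjusted p under 0.05. The glycoproteins and fibrillar collagens lie to the left of 0, the basement membrane genes other than Col4a5 lie close to it, and the elastic fibre genes spread to both sides.

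The glycoproteins and matricellular proteins held all of the called genes. This group consists of Fn1, Tnc, Postn, Sparc, Sparcl1, Spon1, Dpt, Thbs1 and Thbs2, proteins that connect cells with the fibrous scaffold or tune its assembly. With both ligands, 2 of the 9 fell, 5 were lower at an unadjusted p under 0.05 and the median difference was -0.28. With Shh 1 of 9 fell and the median was -0.32, and with Ihh 1 of 9 fell and the median was -0.24. On the mean over the 9 genes, the Vehicle arrays lay at 0.03, 0.10 and -0.13 from their own mean, the Shh arrays at -0.35, -0.26 and -0.40 and the Ihh arrays at -0.15, -0.15 and -0.41. Ihh arrays 1 and 2 were thus close to the lowest Vehicle array on this mean, and the other treated arrays were further below it. The log2 difference between the 3′ and the 5′ control probe sets of Gapdh was 0.028, -0.076 and -0.049 on the Vehicle arrays. It was -0.15, -0.16 and -0.18 on the Shh arrays and -0.045, -0.17 and -0.19 on the Ihh arrays. For the actin control it was 0.28, 0.15 and 0.19 on the Vehicle arrays, and treated arrays overlapped these. The Shh arrays were at 0.15, 0.17 and 0.14 and the Ihh arrays at 0.18, 0.16 and 0.12. The part of these control differences in the values of the 9 genes was not tested.

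Thrombospondin 1 is a large secreted protein that binds integrins and CD36 and can activate latent TGF-beta. Thbs1 stood at 11.79, 11.96 and 11.92 on the Vehicle arrays, 11.65, 11.57 and 11.49 on the Shh arrays and 11.36, 11.51 and 11.56 on the Ihh arrays (log2 level). All 6 treated arrays were below all 3 Vehicle arrays, and the arrays of the 2 ligands overlapped. The difference was -0.36 ± 0.064 (SE) for both ligands, a 1.29-fold fall, with an adjusted p of 0.0252 in limma. With Ihh it fell by 0.41 (adjusted p = 0.0429, limma), and with Shh the difference was -0.32 (adjusted p = 0.065, limma). A dimmer probe set of Thbs1 had a difference of -0.26 ± 0.10 for both ligands, with an adjusted p of 0.307 over all probe sets, and its treated and Vehicle arrays overlapped. With the mean of both probe sets as the value of the gene, the adjusted p for both ligands was 0.102, and the call was lost. The fall with both ligands also lost its call without Vehicle 2, Vehicle 3, Shh 2, Shh 3 or Ihh 2, with an adjusted p of at most 0.135, and the fall with Ihh lost it without any single array, at 0.0541 to 0.179. With the replicate number as a block the Ihh call was lost too (adjusted p = 0.0703, limma).

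Dermatopontin binds decorin, fibronectin and TGF-beta and takes part in collagen fibril assembly. Dpt stood at 6.46, 6.84 and 6.50 on the Vehicle arrays, 6.02, 5.91 and 5.89 on the Shh arrays and 6.15, 6.01 and 5.56 on the Ihh arrays. Every treated array was below every Vehicle array, and Ihh array 3 was the lowest. Its difference was -0.68 ± 0.13 for both ligands, a 1.60-fold fall (adjusted p = 0.0346, limma), the largest difference downward among the matrix genes. The values for each ligand were close to each other, -0.66 with Shh (adjusted p = 0.0571) and -0.69 with Ihh (adjusted p = 0.0876) in limma. Dpt lay near the array medians, below them on 3 of the 9 arrays. The call for both ligands was lost without Vehicle 1, Vehicle 2, any of the 3 Shh arrays or Ihh 2, with an adjusted p of at most 0.155.

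Fibronectin is the main early scaffold on which collagens are laid down, and it is bound by the integrin α5β1. Fn1 stood at 12.04, 11.94 and 11.88 on the Vehicle arrays, 11.66, 11.66 and 11.58 on the Shh arrays and 11.80, 11.73 and 11.61 on the Ihh arrays. The treated arrays were all lower than the Vehicle arrays, the Shh arrays the most uniformly so. Fn1 fell with Shh by 0.32 ± 0.068, or 1.25-fold (adjusted p = 0.0489, limma). Its difference was -0.28 ± 0.059 with both ligands (adjusted p = 0.0507) and -0.24 with Ihh (adjusted p = 0.23) in limma. The Shh call held without Vehicle 3 or Ihh 3 and was lost without any of the other 7 arrays, with an adjusted p of at most 0.167. It was also lost with the values quantile-normalized again (adjusted p = 0.055, limma) and with only the Shh and Vehicle arrays in the fit (adjusted p = 0.0732, limma).

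A second probe set of Fn1 separated the treatments further. It stood at 10.73, 10.70 and 10.73 on the Vehicle arrays, 9.99, 10.20 and 10.04 on the Shh arrays and 10.55, 10.58 and 10.53 on the Ihh arrays. Here the Shh arrays were lowest, the Ihh arrays were in the middle and the Vehicle arrays were highest, with no overlap between any 2 groups. Over all 34945 probe sets with a single symbol, of which 1.16% passed for Shh, its difference with Shh was -0.64 ± 0.064 (adjusted p = 0.00174, limma). With both ligands it was -0.40 (adjusted p = 0.00869) and with Ihh -0.17 (adjusted p = 0.443), also in limma. The direct difference of Shh from Ihh at this probe set was -0.48 ± 0.064, and it did not pass the threshold (adjusted p = 0.106, limma). The brighter probe set gave -0.080 ± 0.068 for the same comparison, so the probe sets of this gene differed in how far apart they put the ligands. Which transcripts each probe set detects was not tested.

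Tenascin C and thrombospondin 2, which modulate how cells attach to the scaffold, also had lower values. Tnc stood at 11.08, 11.09 and 11.22 on the Vehicle arrays, 10.99, 10.72 and 10.72 on the Shh arrays and 10.85, 10.97 and 10.84 on the Ihh arrays. The groups did not overlap, and the difference with both ligands was -0.28 ± 0.072 (adjusted p = 0.0997, limma), short of the threshold. Thbs2 stood at 9.99, 10.09 and 9.80 on the Vehicle arrays, 9.63, 9.84 and 9.41 on the Shh arrays and 9.80, 9.79 and 9.53 on the Ihh arrays. Shh array 2 overlapped the Vehicle range, as did Ihh array 1, and the difference was -0.30 ± 0.11 (adjusted p = 0.231, limma). The other 2 probe sets of Thbs2 gave -0.43 and -0.31, and the second probe set of Tnc gave -0.29.

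Sparc, Sparcl1, Spon1 and Postn encode SPARC, its relative SPARC-like 1, spondin 1 and periostin. Sparc, a collagen-binding protein and one of the brightest matrix genes, was at 13.23, 13.34 and 13.30 on the Vehicle arrays, 13.17, 13.15 and 13.11 on the Shh arrays and 13.27, 13.31 and 13.21 on the Ihh arrays. The Shh arrays were below all other arrays and the Ihh arrays lay within the Vehicle range or near it, with a difference of -0.14 for Shh (adjusted p = 0.206) and -0.024 for Ihh (adjusted p = 0.953) in limma. Sparcl1 had a difference of -0.43 ± 0.16 for Shh (adjusted p = 0.195) and -0.094 ± 0.16 for Ihh (adjusted p = 0.931), and neither passed. Postn varied more between pools than between treatments, at 12.18 ± 0.17 with Vehicle, 11.94 ± 0.19 with Shh and 12.16 ± 0.25 with Ihh (mean ± SD, n = 3).

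**Figure D2:**
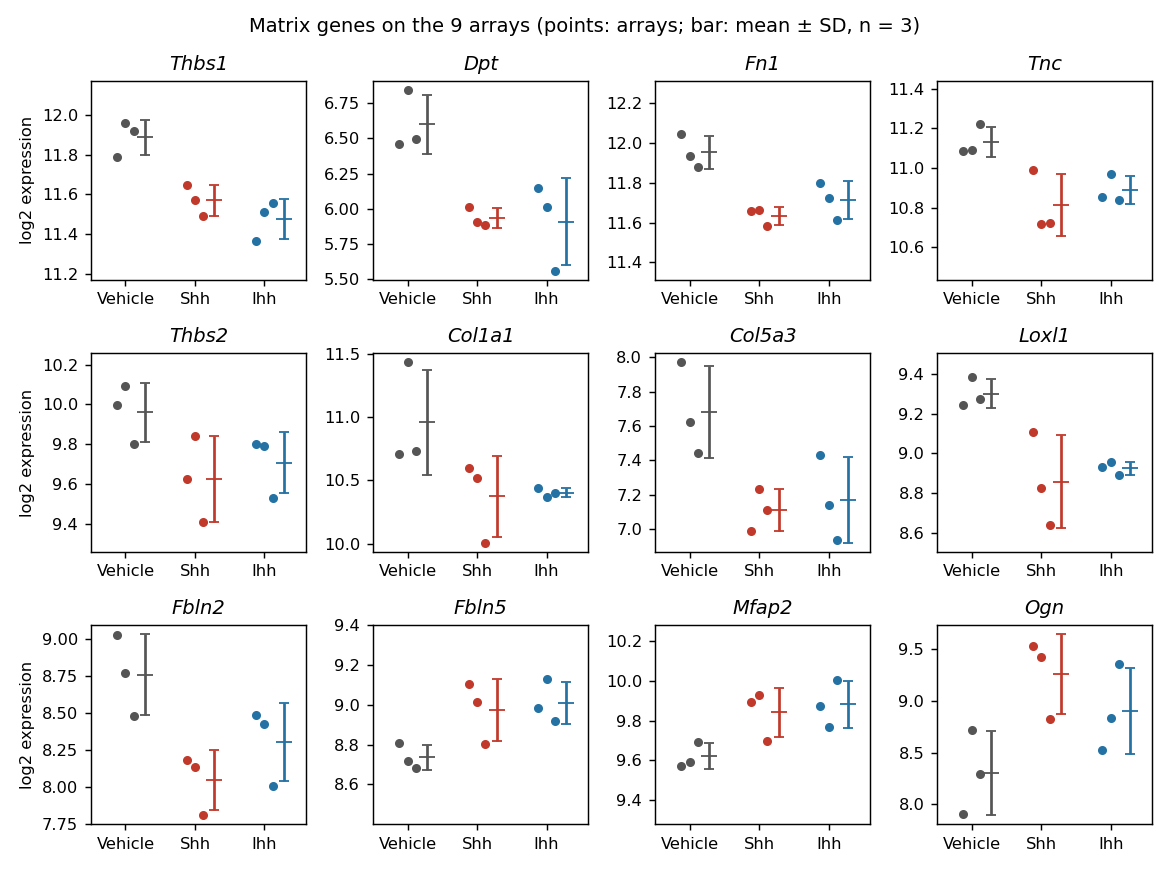
Log2 level of 12 matrix genes on each of the 9 arrays (vertical axis), with points for arrays and bars for the mean ± SD of each treatment (n = 3). Thbs1, Dpt, Fn1, Tnc, Col1a1, Col5a3 and Loxl1 are lower on every treated array than on every Vehicle array, and Mfap2 is higher on every treated array.

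The promoters of 2 of these genes are shown because Dpt was the called gene with a RefSeq promoter entry and because Thbs2 carries the core of the motif bound by the GLI factors, the transcription factors at the end of the hedgehog pathway. Both run 5′ to 3′ in the direction of the gene, from 250 bases before to 50 bases after the annotated start, from RefSeq (GRCm38.p6): Dpt at chr1:164796413-164796712, plus strand, and Thbs2 at chr17:14694213-14694512, minus strand. On either strand, capitals mark the GLI core (CCACCCA) and the TATA box letters (TATAAA) where the window holds them. Thbs2 has the TATA box letters only on the strand opposite to the printed one, far upstream of its start.
Dpt: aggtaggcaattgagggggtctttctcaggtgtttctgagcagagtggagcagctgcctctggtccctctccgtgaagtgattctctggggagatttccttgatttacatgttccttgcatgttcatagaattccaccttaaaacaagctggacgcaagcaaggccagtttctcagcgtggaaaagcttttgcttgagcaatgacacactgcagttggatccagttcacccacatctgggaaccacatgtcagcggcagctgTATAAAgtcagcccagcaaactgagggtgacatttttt
Thbs2: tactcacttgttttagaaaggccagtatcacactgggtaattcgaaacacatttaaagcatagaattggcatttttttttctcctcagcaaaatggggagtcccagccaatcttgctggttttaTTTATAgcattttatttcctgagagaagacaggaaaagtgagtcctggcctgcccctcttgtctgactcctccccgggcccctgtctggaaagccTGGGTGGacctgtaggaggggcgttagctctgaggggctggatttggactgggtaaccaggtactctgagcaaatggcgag
The GLI core letters of Thbs2 begin at position -31 relative to the start and read TGGGTGG, the reverse complement of the searched letters. The Dpt promoter had no CCACCCA in this window, and its TATAAA begins at position 13, after the annotated start. Thbs1 and Fn1 had no entry in the table.

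The fibrillar collagens were the other group with all members below their Vehicle means. They are the subunits of types I, III, V and XI, which form the banded fibrils of connective tissue. Of the 7, 0 passed the test with both ligands, 2 were lower at an unadjusted p under 0.05, and the median difference was -0.11. For 3 of the 7 the treated and Vehicle arrays did not overlap.

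Col1a1 encodes the α1 chain of type I collagen, present in excess of α2 in the trimer. Col1a1 stood at 10.71, 11.44 and 10.73 on the Vehicle arrays, 10.60, 10.52 and 10.01 on the Shh arrays and 10.44, 10.37 and 10.40 on the Ihh arrays. All treated arrays were lower than all Vehicle arrays, but Vehicle array 2 was far above the other Vehicle arrays. The difference with both ligands was -0.57 ± 0.17 (adjusted p = 0.159, limma). The second probe set of Col1a1 gave a difference of -0.13 ± 0.11, with Shh arrays at 9.54, 9.54 and 9.95, inside or above the Vehicle range of 9.54 to 9.80. The probe sets of this gene thus did not repeat each other in size.

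Col1a2, which encodes the partner chain, was at 12.12, 12.30 and 12.19 on the Vehicle arrays, 11.89, 12.17 and 11.72 on the Shh arrays and 12.03, 12.12 and 12.15 on the Ihh arrays. Its arrays overlapped, with a difference of -0.19 ± 0.090 (adjusted p = 0.395, limma). Relative to the Vehicle mean, the log2 ratio of Col1a1 to Col1a2 was -0.049, -0.41 and -0.46 on the Shh arrays and -0.35, -0.51 and -0.50 on the Ihh arrays, and -0.17, 0.38 and -0.21 on the Vehicle arrays. The 3 Ihh arrays lay below all Vehicle arrays and Shh array 1 lay within the Vehicle range. The ratio was not tested.

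Col3a1, the type III collagen of reticular and gut wall connective tissue, was at 13.43, 13.42 and 13.37 on the Vehicle arrays, 13.25, 13.40 and 13.14 on the Shh arrays and 13.43, 13.30 and 13.37 on the Ihh arrays. These values overlapped, and the 95% interval of the difference with both ligands ran from -0.23 to 0.050. The minor type V chains regulate fibril diameter. Col5a3 stood at 7.97, 7.62 and 7.44 on the Vehicle arrays, 6.99, 7.24 and 7.11 on the Shh arrays and 7.43, 7.14 and 6.93 on the Ihh arrays. Its treated arrays were all below the Vehicle arrays, narrowly so for Ihh array 1, and the difference was -0.54 ± 0.13, 1.45-fold lower (adjusted p = 0.0796, limma). The dimmer probe set of Col5a3 gave -0.046. Col5a2 also separated, over a far smaller distance, with a difference of -0.077 ± 0.052 (adjusted p = 0.589, limma). The single probe set of highest level of Col11a1, a chain of type XI collagen, gave -0.11 and Col5a1 gave -0.029.

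The beaded-filament and fibril-associated collagens had no called gene, 4 of 6 above 0 and a median difference of 0.031 with both ligands. Col6a2 encodes a chain of type VI collagen, the beaded microfibril around cells. Col6a2 stood at 11.29, 11.11 and 11.19 on the Vehicle arrays, 11.37, 11.43 and 11.34 on the Shh arrays and 11.51, 11.32 and 11.47 on the Ihh arrays. Every treated array was above every Vehicle array, by 0.21 ± 0.061 on the mean (adjusted p = 0.142, limma). Its partner chains did not show this, with differences of 0.015 for Col6a1 and 0.047 for Col6a3, and a second, less specific probe set of Col6a2 gave -0.10. Col14a1, Col12a1 and Col16a1, collagens that sit on the surface of fibrils or near them, differed by 0.14, -0.052 and -0.13.

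The basement membrane and network genes were the group with the smallest differences. Of 13 genes, 0 passed with both ligands, 1 was higher at an unadjusted p under 0.05, and the median size of the difference without its sign was 0.044. Col4a1, the main type IV collagen chain, stood at 12.56, 12.46 and 12.46 on the Vehicle arrays, 12.64, 12.46 and 12.48 on the Shh arrays and 12.44, 12.36 and 12.41 on the Ihh arrays, with overlapping groups and a 95% interval of -0.15 to 0.098 for both ligands. The interval was -0.22 to 0.079 for its partner Col4a2, -0.18 to 0.079 for the laminin γ1 chain gene Lamc1 and -0.13 to 0.12 for Nid1, which encodes the linker nidogen 1. For perlecan, encoded by Hspg2, it was -0.13 to 0.17. All of these intervals lay within a change of 0.5 on the log2 scale in either direction. They hold for the brightest probe sets. Other probe sets reached 0.27 for Lamc1 and 0.15 for Nid1, and -0.086 for Hspg2 and -0.084 for Col4a1.

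Col4a5, a chain of the type IV network that is restricted to fewer tissues, was the exception. It stood at 6.06, 5.69 and 5.30 on the Vehicle arrays, 5.88, 6.38 and 6.16 on the Shh arrays and 6.05, 6.15 and 6.17 on the Ihh arrays. Vehicle array 1 was within the treated range and Vehicle array 3 far below it, and 3 of its values were under the array medians. The difference was 0.45 ± 0.15 for both ligands (adjusted p = 0.212, limma), short of the threshold. Lama4, the laminin α4 chain of vessels and muscle, gave 0.047 ± 0.059. Its dimmer probe set stood at 5.51, 6.58 and 6.31 on the Vehicle arrays, 7.12, 7.06 and 6.96 on the Shh arrays and 6.41, 6.87 and 7.13 on the Ihh arrays and gave 0.79 ± 0.22, with an adjusted p of 0.134 over all probe sets in limma. The brighter values of Lama4 thus lay level across treatments while the dimmer probe set had its lowest value on Vehicle array 1.

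The elastic fibre genes were divided. Elastic fibres have a core of elastin, encoded by Eln, on a mantle of microfibrils, and are joined by fibulins and cross-linked by lysyl oxidases. Of the 12 measured, 0 passed with both ligands, 4 had higher and 3 had lower values with an unadjusted p under 0.05, and 6 lay on each side of 0. The median size of the difference without its sign was 0.24, the next largest of the role groups after the glycoproteins.

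The lower members included elastin, a cross-linking enzyme and a fibulin. Loxl1 encodes a lysyl oxidase needed for elastic fibre renewal, and it stood at 9.24, 9.38 and 9.27 on the Vehicle arrays, 9.11, 8.83 and 8.64 on the Shh arrays and 8.93, 8.96 and 8.89 on the Ihh arrays. The groups did not overlap, with a difference of -0.41 ± 0.089, 1.33-fold lower (adjusted p = 0.0562, limma). Eln stood at 7.63, 7.70 and 7.46 on the Vehicle arrays, 7.28, 7.54 and 7.17 on the Shh arrays and 7.42, 7.35 and 7.33 on the Ihh arrays. Shh array 2 lay inside the Vehicle range, and the difference was -0.25 ± 0.084 (adjusted p = 0.21, limma). The second probe set of Eln gave 0.018, so its lower values rest on 1 probe set. Fbln2 encodes fibulin 2, which binds fibronectin and basement membrane proteins, and it stood at 9.03, 8.77 and 8.48 on the Vehicle arrays, 8.18, 8.14 and 7.81 on the Shh arrays and 8.49, 8.43 and 8.00 on the Ihh arrays. The Shh arrays were below all Vehicle arrays and the Ihh arrays reached the lowest Vehicle array, with differences of -0.72 ± 0.17 for Shh (adjusted p = 0.065) and -0.45 ± 0.17 for Ihh (adjusted p = 0.395) in limma. With the replicate number as a block, the adjusted p in limma was 0.00318 for both ligands, 0.00333 for Shh and 0.0265 for Ihh. With less specific probe sets left out, the remaining probe set of Fbln2 gave -0.13 for both ligands in place of -0.59, so the size rests on 1 probe set.

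The higher members were proteins of the microfibril and its surface. Mfap2 encodes the microfibril-associated protein that binds fibrillin, and it stood at 9.57, 9.59 and 9.69 on the Vehicle arrays, 9.90, 9.93 and 9.70 on the Shh arrays and 9.87, 9.77 and 10.01 on the Ihh arrays. Each treated array was higher than each Vehicle array, Shh array 3 only just, with a difference of 0.24 ± 0.071 (adjusted p = 0.148, limma). Emilin1 encodes the elastin-microfibril interface protein, and it stood at 9.19, 9.04 and 9.15 on the Vehicle arrays, 9.53, 9.25 and 9.26 on the Shh arrays and 9.37, 9.28 and 9.33 on the Ihh arrays. Its groups did not overlap either, with a difference of 0.21 ± 0.071 (adjusted p = 0.212, limma). Fbln5 encodes fibulin 5, which tethers elastin to cells and to lysyl oxidases, and it stood at 8.81, 8.72 and 8.68 on the Vehicle arrays, 9.10, 9.02 and 8.80 on the Shh arrays and 8.98, 9.13 and 8.92 on the Ihh arrays. Shh array 3 lay just inside the Vehicle range, and the difference was 0.26 ± 0.075 (adjusted p = 0.146, limma). Fbn2, the fibrillin of the embryo, gave 0.27 ± 0.11 with overlapping arrays (adjusted p = 0.339, limma). The lysyl oxidase Lox, the closest relative of Loxl1 on this list, gave -0.11 ± 0.12, and the dim genes Efemp1 and Mfap5 were below the array medians on all 9 arrays.

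Of the higher elastic fibre genes, Fbln5 and Mfap2 hold the GLI core in their RefSeq promoters, shown here for comparison with that of Thbs2, a gene with lower values. The windows are as for Dpt and Thbs2, and capitals mark the GLI core: Fbln5 at chr12:101818435-101818734, minus strand, and Mfap2 at chr4:141010431-141010730, plus strand (GRCm38.p6).
Fbln5: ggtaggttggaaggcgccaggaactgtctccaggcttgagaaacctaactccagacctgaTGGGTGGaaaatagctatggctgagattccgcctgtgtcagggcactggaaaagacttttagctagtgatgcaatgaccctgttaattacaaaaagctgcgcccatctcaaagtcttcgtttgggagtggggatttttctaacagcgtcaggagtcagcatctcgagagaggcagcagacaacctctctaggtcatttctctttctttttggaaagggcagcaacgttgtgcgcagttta
Mfap2: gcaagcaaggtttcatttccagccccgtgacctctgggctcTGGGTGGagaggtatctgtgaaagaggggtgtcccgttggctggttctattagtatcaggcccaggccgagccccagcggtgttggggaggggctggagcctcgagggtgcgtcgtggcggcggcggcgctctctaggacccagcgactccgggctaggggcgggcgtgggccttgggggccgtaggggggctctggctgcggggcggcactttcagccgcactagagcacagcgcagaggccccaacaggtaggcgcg
The core letters begin at position -190 in Fbln5 and at position -209 in Mfap2, and all 3 genes carry them as TGGGTGG. RefSeq promoters were found for 36 of the 56 listed genes, 45 promoters in all. CCACCCA was in 17.8% of these 45 promoters and in 9.3% of the 32851 promoters of the table, and the 7 genes that hold it are Col11a1, Fbln1, Fbln5, Efemp2, Mfap2, Vcan and Thbs2. The GC box GGGCGG was in 64.4% against 35.7%, and the NF-kB pattern, searched as GGG and CC with any 5 bases between them, in 71.1% against 50.8%. The SMAD-like letters CAGACA were in 31.1% against 21.0%, the TATA box in 15.6% against 13.6% and the AP-1 pattern, TGA and TCA around any base, in 4.44% against 7.81%. Both strands were searched, and letters that stand in a window were not tested as binding sites. The genes with the GLI core included higher values (Fbln5, Mfap2) and lower values (Thbs2), as printed above.

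The proteoglycans had no called gene, 4 of 6 above 0 and a median difference of 0.079 with both ligands. Ogn, which encodes osteoglycin, a small leucine-rich proteoglycan that binds collagen, had the widest spread of the matrix genes, with an SD within groups of 0.40. Ogn stood at 7.91, 8.72 and 8.29 on the Vehicle arrays, 9.54, 9.43 and 8.82 on the Shh arrays and 8.52, 8.83 and 9.35 on the Ihh arrays. The Shh arrays were above all Vehicle arrays, and Ihh array 1 was below the highest Vehicle array. The difference was 0.96 ± 0.26 for Shh, 1.94-fold higher (adjusted p = 0.0996), and 0.60 ± 0.26 for Ihh (adjusted p = 0.528) in limma. With both ligands it was 0.78 (adjusted p = 0.146), the largest difference upward among the matrix genes, and its second probe set gave 0.73.

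Decorin, the main small proteoglycan on collagen fibrils, had lower treated values. Dcn stood at 12.75, 12.85 and 12.85 on the Vehicle arrays, 12.55, 12.59 and 12.53 on the Shh arrays and 12.82, 12.69 and 12.49 on the Ihh arrays. The Shh arrays were below the Vehicle arrays, while Ihh array 1 was inside their range, and the difference was -0.26 ± 0.081 for Shh (adjusted p = 0.13) and -0.15 ± 0.081 for Ihh (adjusted p = 0.648) in limma. Lum, which encodes the related lumican, gave 0.26 ± 0.10 with both ligands (adjusted p = 0.286, limma). Vcan, the large hyaluronan-binding versican, gave 0.11 ± 0.054 (adjusted p = 0.389, limma), and Bgn, encoding biglycan, gave -0.030. Of the 8 probe sets of Vcan, 5 were higher and 3 lower with both ligands, from -0.15 to 0.36. The 6 genes therefore had no common direction.

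**Figure D3:**
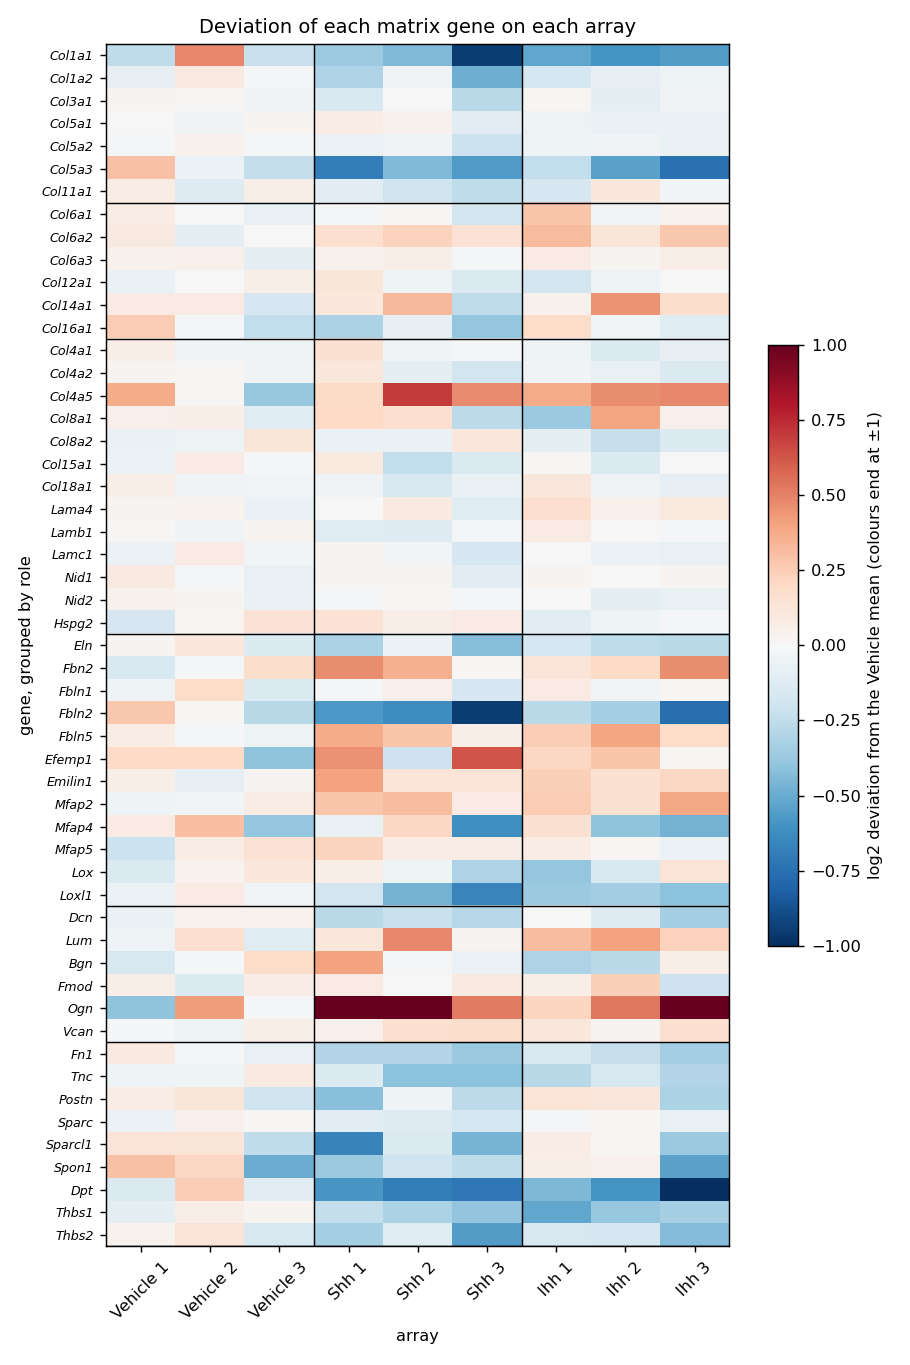
Log2 deviation of each of the 53 matrix genes (rows, by role) from its Vehicle mean on each of the 9 arrays (columns), with colours ending at -1 and 1. Blue rows such as Dpt, Fbln2 and Col5a3 run through the 6 treated arrays, the basement membrane rows apart from Col4a5 and Col8a1 are pale, and Ogn is the darkest red row.

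Between the ligands, 0 of the 53 matrix genes differed at the threshold, beside 0.011% of all genes, and 0 reached an unadjusted p under 0.05 in limma, beside 13.1% of all genes. The differences of Shh from Ihh ran from -0.33 for Sparcl1 to 0.36 for Ogn. For 44 of the 53 genes the 95% interval lay within a change of 0.5 on the log2 scale in either direction. It reached beyond that for Col16a1, Fbln2, Efemp1, Mfap4, Bgn, Ogn, Postn, Sparcl1 and Spon1, so a difference of that size was not excluded at this number of arrays for those 9. These counts and intervals hold for the brightest probe set of each gene. The second probe set of Fn1, given above, put the ligands further apart, without overlap of their arrays. The smallest unadjusted p belonged to Sparc, with a difference of -0.12 and an interval of -0.24 to 0.004. Col16a1 had -0.28 with an interval of -0.57 to 0.018. For Dpt the difference was 0.028 (interval -0.30 to 0.36) and for Thbs1 0.092 (interval -0.071 to 0.26).

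The matrix genes with several probe sets allowed the direction to be read more than once. Of 40 such genes, 24 had all probe sets on the same side of 0 with both ligands. Over the 119 probe sets, 3 passed for both ligands, where 0.956% of all single-symbol probe sets did, and these belonged to Dpt, Thbs1 and Fn1. The second probe set of Sparc gave -0.33 ± 0.11 in place of -0.083. Where probe sets of 1 gene differed, as in Col1a1, Col5a3, Col6a2, Lama4, Lamc1, Eln, Vcan, Sparc and Fbln2, the size printed for the gene holds for its brightest probe set.

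**Figure D4:**
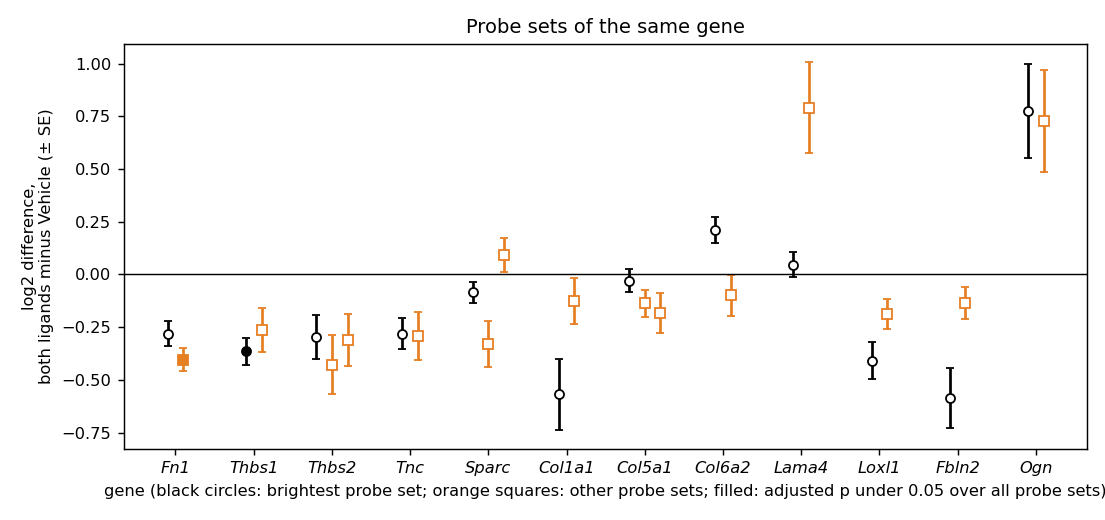
Log2 difference of both ligands from Vehicle (vertical axis, bars ± SE from limma) for each probe set of 12 matrix genes; black circles are the brightest probe set, orange squares the others, and filled symbols have an adjusted p under 0.05 over all probe sets. Probe sets of Fn1, Thbs1, Thbs2, Tnc and Ogn lie on the same side of 0, and those of Col6a2 and Sparc lie on both sides.

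Cells of other types were present in these cultures, and their markers moved beside the matrix genes. Of 10 markers of macrophages and other leukocytes, 4 fell and 1 rose with both ligands, and their summed linear level was 22249 to 24105 on the Vehicle arrays, 21380 to 21673 on the Shh arrays and 19864 to 20709 on the Ihh arrays. All 8 endothelial markers were below their Vehicle means with both ligands and 0 passed there, while with Shh alone Cdh5 fell by 0.59 (adjusted p = 0.0464, limma). Their sums were of 4630 to 5384, 3831 to 4153 and 3791 to 5057 in the same order. Of 6 fibroblast markers Prrx1 fell, and the sums were 15096 to 15338, 14016 to 14273 and 14409 to 15620. Of 7 smooth muscle markers Myocd rose, and 0 of 5 measured markers of enteric neurons and glia, of 5 of mesothelium and of 3 measured of red blood cells passed. The 53 matrix genes themselves summed to 96809 to 101467 on the Vehicle arrays, 85837 to 94690 on the Shh arrays and 92886 to 97484 on the Ihh arrays. The part of these cells in the matrix results was not tested. With the mean level of the epithelium markers as a covariate, Thbs1 kept its fall with both ligands (adjusted p = 0.0216, limma), as did Dpt (adjusted p = 0.0269, limma). The epithelium markers did not differ between treatments at the threshold, so this fit cannot show the part of the other cells. Markers of the other cell types were not used as covariates.

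Other genes of the matrix pathway were followed in 4 lists of collagen processing enzymes, matrix receptors, further matrix proteins, and hyaluronan and glycosaminoglycan genes, of which 124 genes were measured. With both ligands 2 rose and 5 fell, where 0.434% of all genes rose and 1.07% fell. With Shh 3 rose and 5 fell, against 0.489% and 1.24% of all genes. With Ihh 1 fell, against 0.456%, and between the ligands 0 passed, against 0.011%. The 23 collagen processing genes had 0 calls and a median of -0.029. The 27 receptors had 1 rise and 2 falls, the 51 further matrix genes 1 fall and the 23 hyaluronan and glycosaminoglycan genes 1 rise and 2 falls, with medians between -0.046 and -0.018.

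Among the receptors, the integrin α5 chain, which pairs with β1 as the main fibronectin receptor, had the largest fall. Itga5 stood at 8.81, 9.13 and 9.01 on the Vehicle arrays, 8.55, 8.14 and 8.21 on the Shh arrays and 8.31, 8.27 and 8.26 on the Ihh arrays. All treated arrays were below all Vehicle arrays, and the difference was -0.69 ± 0.095 with both ligands, 1.62-fold (adjusted p = 0.00675, limma), -0.68 with Shh (adjusted p = 0.019) and -0.70 with Ihh (adjusted p = 0.0218). The call for both ligands held without each of the 9 arrays in turn, at an adjusted p of 0.00244 to 0.0496. It was lost where less specific probe sets were left out, which put a dimmer probe set in its place with a difference of -0.43 (adjusted p = 0.213, limma). The Shh call was lost without Vehicle 2, Shh 2 or Shh 3 (adjusted p of at most 0.0788) and the Ihh call without Vehicle 2 or any Ihh array (at most 0.107). With the mean of its probe sets the adjusted p was 0.0528 for Shh and 0.0768 for Ihh, without less specific probe sets 0.301 and 0.326, and with only the Shh and Vehicle arrays 0.0515 for Shh. With the replicate number as a block the Ihh call was lost (adjusted p = 0.056, limma).

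The integrin α8 chain, a receptor of nephronectin, fibronectin and tenascin on smooth muscle and mesenchyme, rose. Itga8 stood at 8.23, 7.93 and 8.07 on the Vehicle arrays, 8.78, 8.59 and 8.45 on the Shh arrays and 8.44, 8.36 and 8.64 on the Ihh arrays. Each treated array was higher than each Vehicle array, with a difference of 0.47 ± 0.094 for both ligands, 1.38-fold (adjusted p = 0.0443, limma). Without single arrays, this call held for Shh 3 and was lost for each of the other 8, with an adjusted p of at most 0.198. The syndecans, cell surface heparan sulphate proteoglycans that act with integrins, differed among themselves. Sdc3 fell with both ligands by 0.35 ± 0.062 (adjusted p = 0.0259), from 9.80, 9.72 and 9.56 on the Vehicle arrays to 9.21 to 9.43 on the treated arrays. The Sdc3 call was lost without Vehicle 1, Vehicle 2, Shh 3, Ihh 2 or Ihh 3 (at most 0.127) and with the mean of its probe sets, which gave -0.17 (adjusted p = 0.102, limma). Sdc2 rose with Shh by 0.41 ± 0.083 (adjusted p = 0.0425), from 8.77, 8.73 and 8.82 to 9.30, 9.16 and 9.07, and with Ihh the difference was 0.25 (adjusted p = 0.336, limma). Leaving out single arrays, the Shh call of Sdc2 held for Vehicle 3, Ihh 2 and Ihh 3 and was lost for the other 6, with an adjusted p of at most 0.161.

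**Figure D5:**
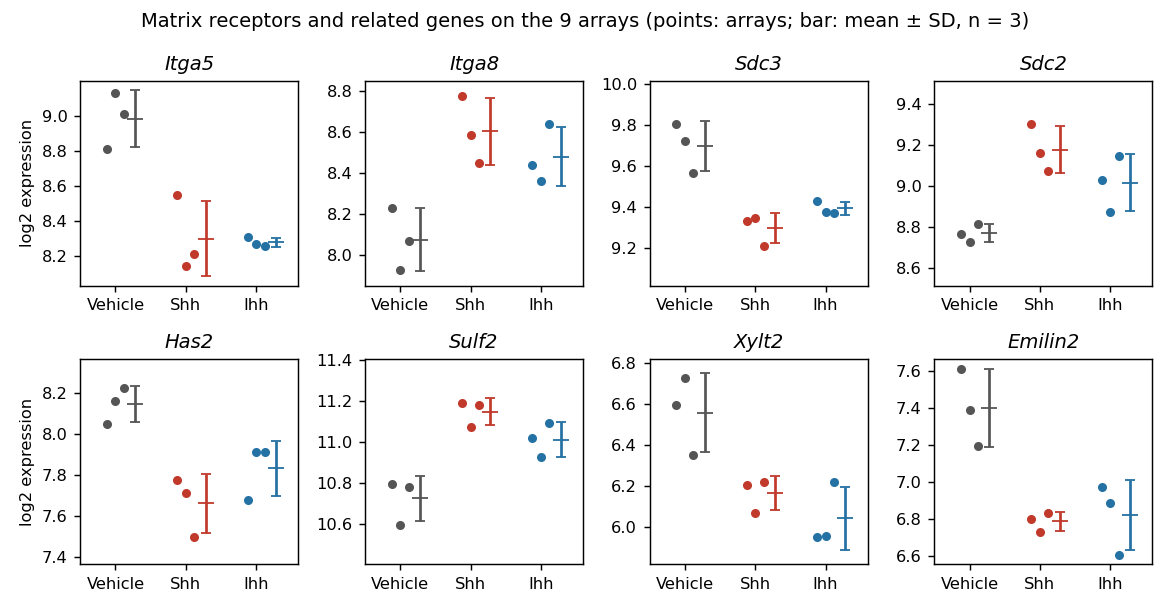
Log2 level of 8 matrix receptor, hyaluronan and other matrix pathway genes on each of the 9 arrays (vertical axis), with points for arrays and bars for the mean ± SD of each treatment (n = 3). Itga5, Sdc3, Has2, Xylt2 and Emilin2 are lower and Itga8, Sdc2 and Sulf2 higher on every treated array than on every Vehicle array.

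Has2 encodes the main hyaluronan synthase of embryonic mesenchyme. Has2 stood at 8.05, 8.16 and 8.22 on the Vehicle arrays, 7.77, 7.71 and 7.50 on the Shh arrays and 7.68, 7.91 and 7.91 on the Ihh arrays. The treated arrays were all lower, with a difference of -0.40 ± 0.080 (adjusted p = 0.0441, limma), a call that held without Shh 1 and was lost without each of the other 8 arrays (at most 0.174). Sulf2 encodes a sulphatase that removes sulphate from heparan sulphate chains outside the cell, and it rose by 0.36 ± 0.064 (adjusted p = 0.028, limma), from 10.59 to 10.79 on the Vehicle arrays to 10.92 to 11.19 on the treated arrays. Its dimmer probe set, used where less specific probe sets were left out, gave 0.22 (adjusted p = 0.266, limma), and the call was also lost without Vehicle 1, Vehicle 2, Shh 1, Shh 3 or Ihh 3 (at most 0.131). Xylt2, which starts glycosaminoglycan chains on core proteins, fell by 0.46 ± 0.092 (adjusted p = 0.0443, limma), which held without Vehicle 3 or Ihh 3 and was lost without each of the other 7 arrays (at most 0.191). Emilin2, a relative of Emilin1, stood at 7.61, 7.39 and 7.19 on the Vehicle arrays, 6.80, 6.73 and 6.83 on the Shh arrays and 6.97, 6.89 and 6.61 on the Ihh arrays. It fell with both ligands by 0.59 ± 0.10 (adjusted p = 0.0222, limma), while Emilin1 had the higher treated values given above. With Ihh its adjusted p was 0.0711, and 0.0448 with the replicate number as a block. Without single arrays Emilin2 lost its call for Vehicle 1, Vehicle 2 or Shh 2, with an adjusted p of at most 0.0975. Vwa1, a basement membrane protein of the von Willebrand factor A family, fell with Shh by 0.38 ± 0.079 (adjusted p = 0.0456, limma), and with Ihh its difference was -0.024. The Vwa1 call held without Ihh 3 and was lost without each of the other 8 arrays (adjusted p of at most 0.161).

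Other genes of these lists came close to the threshold. Tnxb, encoding the tenascin of fibrillar connective tissue, stood at 7.23, 7.19 and 7.30 on the Vehicle arrays, 6.65, 6.48 and 6.81 on the Shh arrays and 6.92, 6.68 and 6.25 on the Ihh arrays. No array overlapped, with a difference of -0.61 ± 0.13 (adjusted p = 0.0507, limma). Among the processing enzymes, Bmp1, the procollagen C-proteinase, differed by -0.31 ± 0.093 (adjusted p = 0.158) and Adamts3, a procollagen N-proteinase, by 0.21 ± 0.069 (adjusted p = 0.193) with both ligands in limma.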

How the data were processed

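Gene expression was measured on 9 Affymetrix arrays, 3 each for Vehicle, Shh and Ihh, from biotin-labelled cRNA of 6 ug total RNA, per the labels' protocols. The deposited values are log2 expression per probe set. GCOS and RMA are named in the submitters' processing notes without versions, and the log2 scale was read from the values, which run from 2.78 to 14.2. Because RMA equalises the arrays' distributions, a change of every gene at once is invisible, and low levels are compressed. No batch or scan date was used here.

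Gene names came from the platform annotation. It gave 1 symbol to 34945, several to 932 and none to 9160, and 64 control probe sets were left out. A RefSeq table (GRCm38.p6) held 34741 of the Entrez identifiers and changed 0 symbols. A gene was its single-symbol probe set of highest mean over the 9 arrays.

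A model with 1 mean per treatment was fitted in R 4.3.3 with limma 3.58.1 (lmFit, eBayes) over all 9 arrays, with 6 residual and 3.88 prior degrees of freedom. Two-sided p-values received a Benjamini-Hochberg adjustment over 18193 genes, or all 34945 probe sets, within each of 4 comparisons, with a threshold of 0.05. All adjusted p are from limma, and intervals are 95%. A count of lower or higher arrays without overlap compares all arrays of the groups named. The script was tested on simulated data. Whether replicate numbers pair the arrays was checked on deviations from the group means: same-numbered Vehicle and Ihh arrays correlated at 0.353, 0.226 and 0.543, and the pairs with Shh at -0.297 to 0.141. The labels name no shared pool, so a pairing could only be read from these values, and the pairs with Shh did not show one. The blocked adjusted p is given beside each matrix or related gene whose call with Ihh it changed. Promoters were searched in Python 3.11.15 on both strands.

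The members, the 4 related lists, the marker lists and the tests were chosen with earlier results of these data known. Named genes were those past the threshold in any comparison, the 4 of smallest unadjusted p in each of 6 role groups, always Fn1, Col1a1, Col1a2, Col3a1, Col4a1, Eln, Tnc, Postn, Dcn and Vcan, the 3 members of highest and of lowest level, the 3 of smallest p between the ligands, and in the related lists the called genes and the 2 of smallest p in each. Other members are named in single sentences as examples of their role group. Marker genes outside that rule were named after their values were seen.

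Alternatives were the replicate number as a block, quantile normalization again, arrays centred on their medians, no genes under the 40th percentile of level, averaged probe sets, every probe set tested singly, no less specific probe sets, a trended and robust variance, array weights, only the groups compared, each array left out in turn and, chosen after seeing the data, the epithelium markers as a covariate.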

Additional observations from a re-analysis of the deposited data

How the results depend on the processing

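Each count of called genes was recomputed under every alternative, and 0 called differences changed direction. Some small differences that were not called crossed 0, such as that of Col11a1 with Ihh, at -0.0966 to 0.0845. With both ligands, 2 matrix genes passed as reported. The count was 4 with median-centred arrays, with dim genes left out, with averaged probe sets and with a trended and robust variance, 6 with the epithelium covariate and 14 with array weights, which gave Vehicle 2 a weight of 3.04. With Shh, 1 passed as reported. The count was 0 with the values quantile-normalized again or every probe set tested singly, 2 with centred arrays or the mean of probe sets, 4 without dim genes or with a trended and robust variance, 5 with the epithelium covariate and 8 with array weights. With Ihh, 1 passed as reported, 0 with averaged probe sets, with probe sets tested singly or with only the groups compared, and 6 with array weights. Of the single probe sets, 3 passed for both ligands, 5 with a trended and robust variance and 8 with array weights. For Shh, 1 passed, then 3 with centred arrays, 2 without dim genes or with the epithelium covariate, 5 with the trended variance and 6 with array weights. For Ihh, 0 passed, then 1 without dim genes or with the trended variance and 2 with array weights, and between Shh and Ihh 0 passed, then 1 with the trended variance. In the related lists, 7 passed for both ligands, 11 without dim genes, with the trended variance or with the epithelium covariate, 4 with every probe set tested singly and 16 with array weights. For Shh, 8 passed, then 5 with every probe set tested singly and 3 with only the groups compared. For Ihh, 1 passed, then 0 without less specific probe sets, 2 with quantile normalization again, the trended variance or the epithelium covariate, and 10 with array weights. The cause of these shifts was not tested. With single arrays left out, matrix genes called ranged from 0 to 4 for both ligands, 0 to 3 for Shh, and 0 to 0 for Ihh and for Shh against Ihh. Probe sets ranged from 0 to 4 for both ligands, 1 to 4 for Shh and 0 to 0 for Ihh and between the ligands, and related genes from 1 to 6 for both ligands, 0 to 9 for Shh, 0 to 4 for Ihh and 0 to 0 between the ligands. Of 9 pairs of arrays with the same replicate number, 4 had deviations correlated above 0.1, and these included all 3 pairs of Vehicle with Ihh. Of 18 pairs with different numbers, 6 were above 0.1. The median correlation was -0.082 for pairs with the same number and 0.01 for pairs with different numbers. With the replicate block, 5 matrix genes passed for both ligands and 4 for Shh. Of the single probe sets, 7 passed for both ligands, 6 for Shh and 1 for Ihh. Fbln2, Fn1 and Bmp1 gained calls with both ligands (adjusted p = 0.00318, 0.0316 and 0.0479, limma). Fbln2, Dpt and Bmp1 gained them with Shh (0.00333, 0.0399 and 0.0393), and Fbln2 and Emilin2 with Ihh (0.0265 and 0.0448). Thbs2 passed too for both ligands and for Shh. Thbs1 and Itga5 lost their calls with Ihh (0.0703 and 0.056) and Has2 and Xylt2 theirs with both ligands (0.0592 and 0.0682). Of 3448 recomputed values of the 44 named genes, 153 lost a call and 106 gained one. All others stayed on their side of the threshold, and 3168 of them were counted as the same. The remaining 21 were not called in either fit and moved by at least the SD within groups.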
